A study of Mus musculus with 6 samples.

Results

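The progenitors studied here were grown with SCF, IL7 and FL, and the 6 genes Kit, Flt3, Il7r, Kitl, Flt3l and Il7 encode the receptors and the ligands of these cytokines. Each gene was represented by the bin of about 100 kb that holds its start on mm10 and by the 10 bins on either side of it, which gave 6 windows of 21 bins, or 126 bins of 24067 on the autosomes and 26731 in all. Lineage-negative bone marrow of mice labelled C56BL/6 had spent 8 days on OP9 stromal cells with the 3 cytokines, after which B220+ cells were selected and in situ Hi-C, a sequencing readout of which stretches of DNA lie close together in the nucleus, was done. The Erg KO group carried Rag1CreT/+ and Erg fl/fl, the CreT control carried Rag1CreT/+ alone, and the group named Erg fl/fl control had floxed alleles and no Cre (Rag1Cre+/+;Erg fl/fl), with 2 libraries in each of the 3 groups. The second library of Erg KO and that of Erg fl/fl control were male and the other 4 libraries female. The Rag1Cre allele acts from the common lymphoid progenitor onwards, so Erg was lost in the course of lymphoid development and not before it. Loss of Erg cannot be told apart from a difference in the stage that cells of each genotype had reached, and OP9 cells are mouse cells whose DNA could enter a library. A bin of 100 kb does not resolve the deleted Erg exons, so the genotype could not be checked here. The sexes could be, and the share of read ends on the X chromosome was 4.26% to 4.46% in the female and 2.23% and 2.51% in the male libraries.

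SCF, IL7 and FL act over short distances in the bone marrow, where stromal cells present them to progenitors that carry the matching receptor. Kit and Flt3 are receptor tyrosine kinases of the same family that signal through the PI3 kinase and MAP kinase pathways, and Il7r encodes the chain that pairs with the common cytokine chain to signal through Jak1, Jak3 and Stat5. Early lymphoid progenitors depend on FL, pro-B cells depend on IL7, and both carry the matching receptors, whereas Kitl and Il7 are known as products of stromal cells. Erg belongs to the ETS family of transcription factors, whose core motif is GGAA. RNA was not measured in these libraries, so every value below describes contacts and not expression.

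Kit lay on chromosome 5 at 75574916-75656722 on the plus strand and Flt3 on the same chromosome at 147330741-147400489 on the minus strand. Il7r lay on chromosome 15 at 9505788-9530176 on the minus strand. Of the ligand genes, Kitl lay on chromosome 10 at 100015630-100100416 on the plus strand, Flt3l on chromosome 7 at 45129788-45136432 on the minus strand, and Il7 on chromosome 3 at 7569994-7613760 on the minus strand. The bins of Kit, Il7r, Kitl and Il7 held no other start of a protein-coding gene. The bin of Flt3 also held the start of Pan3, and that of Flt3l held 10 starts in all, among them the ribosomal protein gene Rpl13a and the Fc receptor gene Fcgrt. The windows differed in the same way, from 6 starts around Il7 and 16 around both Kit and Kitl to 118 around Flt3l. GC content of the gene's own bin ran from 38.6% for Il7 to 52.3% for Flt3l, and 99.4% of autosomal bins had a lower GC content than the latter.

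The sequence at the start of Flt3 is shown because it decides what the values of its bin describe. Bins meet at GATC, the recognition site in whose fragments read pairs were counted, and one such border lies 13 bases from the start of Flt3. The line gives the minus strand of GRCm38.p6, chr5:147400471-147400500, with the site in capitals.
Flt3 bin border: gggaccacggcgggcacgtggGATCggctg
Only 14 bases of Flt3 therefore lay in the bin named after it, and the rest of the gene lay in the neighbouring bin toward the start of the chromosome. The next 2 lines give 150 bases before the Flt3 start (chr5:147400490-147400639, minus strand) and before the RefSeq start of Il7r (chr15:9529877-9530026, minus strand, inside an intron of a longer noncoding transcript of that gene). They are shown because Flt3 and Il7r were the members whose promoters held the longer ETS motif GGAAGT, and GGAA or its reverse complement TTCC stands in capitals.
Flt3: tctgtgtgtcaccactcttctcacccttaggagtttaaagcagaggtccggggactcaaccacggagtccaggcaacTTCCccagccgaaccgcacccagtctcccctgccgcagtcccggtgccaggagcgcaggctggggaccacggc
Il7r: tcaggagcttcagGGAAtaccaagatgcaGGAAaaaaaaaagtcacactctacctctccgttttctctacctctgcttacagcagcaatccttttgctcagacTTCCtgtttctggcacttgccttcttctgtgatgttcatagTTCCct
GGAAGT was searched on both strands in the 300 bases from 250 before to 50 after the RefSeq start, and it stood once each in the promoters of Flt3 and Il7r and in none of Kit, Kitl and Flt3l. It stood in 23.8% of 32851 mouse promoters of that length, and GGAA, which overlaps it, in 96.0%. Another longer ETS motif, CCGGAA, stood once in the promoter of Kitl and in no other member searched. It stood in 14.9% of the same mouse promoters. All these matches describe letters and no binding.

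Libraries held 29014581 to 68085468 read pairs. Contacts between chromosomes made up 32.3% and 34.6% of read pairs in the Erg KO libraries and 21.6% to 26.8% in the 4 control libraries, so the groups also differed in how much of each library lay outside chromosomes' own contacts. Erg KO replicate 1 stood apart in the compartment scores of the Il7r window, as described below. Some values of that window are also given without it, and the others include it. Only 1 of 431785 bin pairs (0.000232%) passed the test between the CreT and Erg fl/fl controls and no bin passed for any score (limma and edgeR, with 27898 bin pairs and 4209, 1976 and 2182 bins at an unadjusted p under 0.05 for compartment score, insulation score and local contacts), and none of the 1255 bin pairs tested in the 6 windows was that one.

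The compartment score places a bin on a scale from inactive, gene-poor chromatin (negative) to active, gene-rich chromatin (positive), from the pattern of its contacts along the chromosome, in units of the chromosome's SD. In the controls the 3 receptor genes had positive scores on average and 2 of the 3 ligand genes had negative ones. Flt3l stood highest at 1.27 ± 0.083 (SD, n = 4), a level that 84.2% of bins did not reach. Flt3 followed at 1.06 ± 0.088 and Il7r at 0.868 ± 0.090. Kit, the SCF receptor, stood at 0.0108 ± 0.095, close to the middle of all bins, with 52.1% of them lower. Il7 stood at -0.200 ± 0.118 and Kitl lowest at -0.428 ± 0.117. The 4 control values of Flt3l did not overlap those of Flt3, and those of Flt3 cleared those of Il7r by less than 1 SD of either. Kit and Il7, and Il7 and Kitl, overlapped and had no order beyond their spread.

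**Figure D1:**
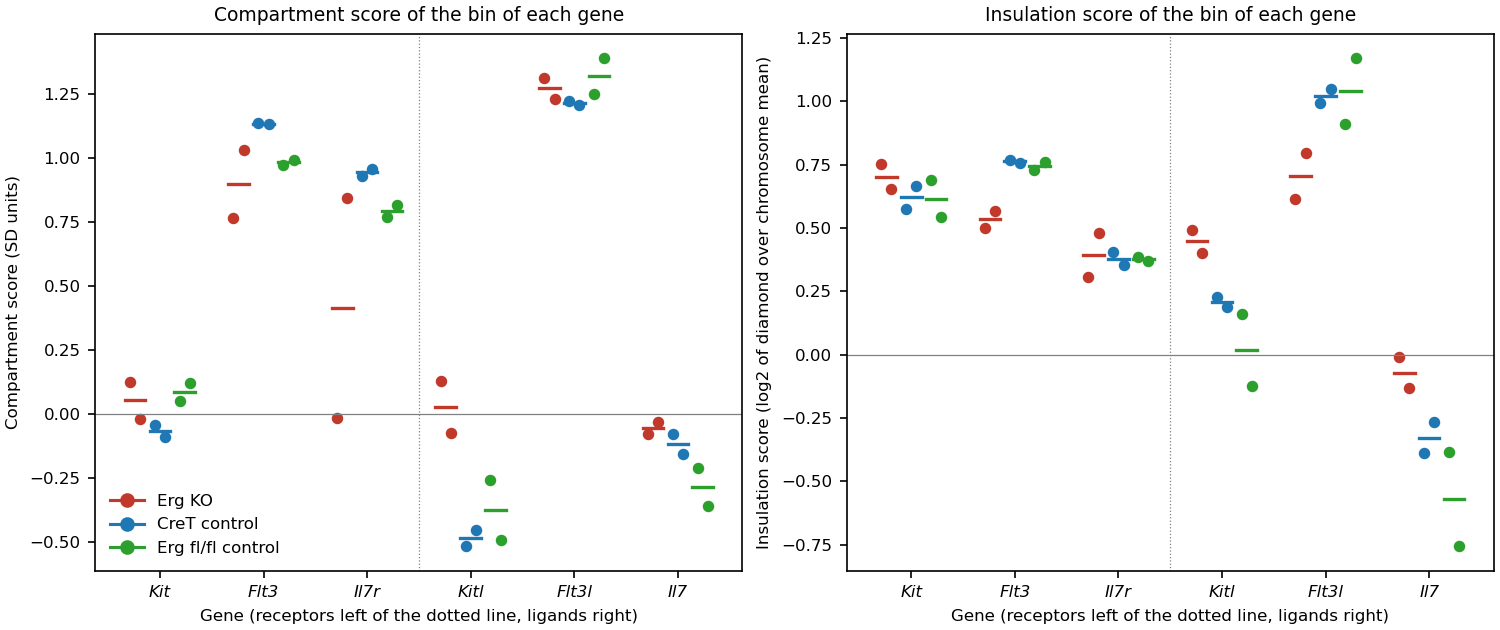
Compartment score (left, in SD units of the chromosome) and insulation score (right, log2) of the bin that holds the start of each gene, with 1 point per library and a bar at the mean of each group of 2 libraries. Both Erg KO points of Kitl lie above all 4 controls on the left, 1 Erg KO point of Il7r lies at -0.0144 and the other among the controls, and Flt3l and Il7 separate in opposite directions on the right, where the scores are those computed over kept bins only and without the GC correction under which Flt3l rose.

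Kitl, the gene of SCF, was the only member whose own bin changed its compartment score. The score was 0.129 and -0.0723 in Erg KO, -0.516 and -0.451 in the CreT control, and -0.257 and -0.490 in the Erg fl/fl control. Both Erg KO libraries thus lay near 0 and above all controls, whose values were all negative. The score rose by 0.51 (SE 0.037, limma, adjusted p = 0.0413), in a comparison in which 3.32% of all bins were called, 1.67% higher and 1.65% lower. Groups did not overlap in 27.9% of all bins. The rise was 0.53 with the first Erg KO library left out and 0.50 with the second left out (adjusted p = 0.0243 and 0.0133), and over 11 alternatives it ran from 0.457 to 0.531 and passed in 7, with an adjusted p of 0.266 when sex was left out, 0.138 without CreT control replicate 1 and 0.0891 without CreT control replicate 2. Among these alternatives the first component was the main score itself on every chromosome, so its pass was fixed. Leaving out either male library gave the same fit. The CreT control alone gave a difference of 0.62 (adjusted p = 0.0601) and the Erg fl/fl control 0.40 (0.0645), and no bin of the genome passed in either, where 5110 and 7124 bins were at an unadjusted p under 0.05. In cultures of mixed cells, more cells with an active Kitl region and a more active region in each cell cannot be told apart.

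The rise at Kitl covered neighbouring bins. The 5 bins from 200 kb before to 200 kb after the gene's bin rose, by 0.38, 0.49, 0.51, 0.48 and 0.31 in order, as did the bin 1 Mb before it (0.27), which made 6 of the 20 bins measured in the window. The bin 300 kb after the gene, which holds 6 closely similar gene models, was not kept. Without either library of the CreT control none of these 6 bins passed, and 4 did with the GC trend removed. Further after the gene the order of the groups turned round. The bin 700 kb after it scored -1.01 and -0.874 in Erg KO and -0.856 to -0.290 in the controls, and the bin 800 kb after it -1.14 and -1.10 against -1.01 to -0.490. Both Erg KO libraries lay below all controls there, with differences of -0.37 and -0.36 that did not pass (adjusted p = 0.0940 and 0.0831). The scores overlapped 1 Mb after the gene, at -1.20 to -1.19 in Erg KO and -1.20 to -0.890 in the controls.

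Il7r, the receptor chain for IL7, scored -0.0144 and 0.845 in Erg KO, 0.931 and 0.956 in the CreT control, and 0.767 and 0.817 in the Erg fl/fl control. Erg KO replicate 1 alone was low, and Erg KO replicate 2 lay within the range of the controls. The fitted difference of -0.57 (SE 0.17, limma) had an adjusted p of 0.131, and it was -0.0609 (adjusted p = 0.340) without replicate 1 and -0.870 (0.0132) without replicate 2, and it also passed without either library of the Erg fl/fl control (0.00978 and 0.0132). In replicate 1 the low scores ran over the whole stretch from 300 kb before to 800 kb after the gene's bin. The window mean was -0.0186 in Erg KO replicate 1, 0.407 in replicate 2 and 0.374 to 0.519 in the controls. The bins 700 kb and 800 kb after Il7r fell, by 0.57 and 0.39 (adjusted p = 0.0461 and 0.0460), and no other bin of this window was called. Their scores were -0.344 and 0.105 in Erg KO replicate 1, 0.164 and 0.377 in replicate 2, and 0.293 to 0.523 and 0.477 to 0.708 in the controls. With the GC trend removed neither bin passed. Without replicate 1 the falls were 0.40 and 0.35 (adjusted p = 0.0444 and 0.0568), so the second was no longer called, and neither was called without either library of the CreT control (0.0892 to 0.150). Without smoothing of the contact matrix the own-bin score of replicate 1 was 0.168, against 0.804 in replicate 2 and 0.484 to 0.846 in the controls, and the difference was -0.28 (adjusted p = 0.332).

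Flt3, the receptor for FL, scored 0.765 and 1.03 in Erg KO, 1.14 and 1.13 in the CreT control, and 0.971 and 0.993 in the Erg fl/fl control. Erg KO replicate 1 was again the lowest and replicate 2 lay between the controls. The difference of -0.20 did not pass (adjusted p = 0.131) and was -0.29 without Erg KO replicate 2. The bins 900 kb before and 500 kb and 800 kb after were called and fell by 0.26, 0.28 and 0.26. With the GC trend removed 2 of these 3 bins passed, and all 3 calls depended on both libraries of the CreT control. Flt1, a receptor of the VEGF family whose gene starts 300 kb after the bin of Flt3, differed by -0.14 (adjusted p = 0.207).

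Kit scored 0.125 and -0.0169 in Erg KO, -0.0411 and -0.0906 in the CreT control, and 0.0523 and 0.123 in the Erg fl/fl control, and the groups overlapped (difference 0.052, adjusted p = 0.583). The bin 600 kb before it rose by 0.41 (limma, adjusted p = 0.0484). That call was lost with the GC trend removed and depended on Erg KO replicate 1 and on both libraries of the CreT control. Pdgfra, the related receptor whose gene starts 400 kb before the bin of Kit, scored 0.498 and 0.162 in Erg KO and -0.0421 to 0.236 in the controls, a difference of 0.31 that did not pass (adjusted p = 0.0609). Kdr, the other related receptor of the window, lay 400 kb after Kit and differed by 0.032 (adjusted p = 0.748).

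**Figure D2:**
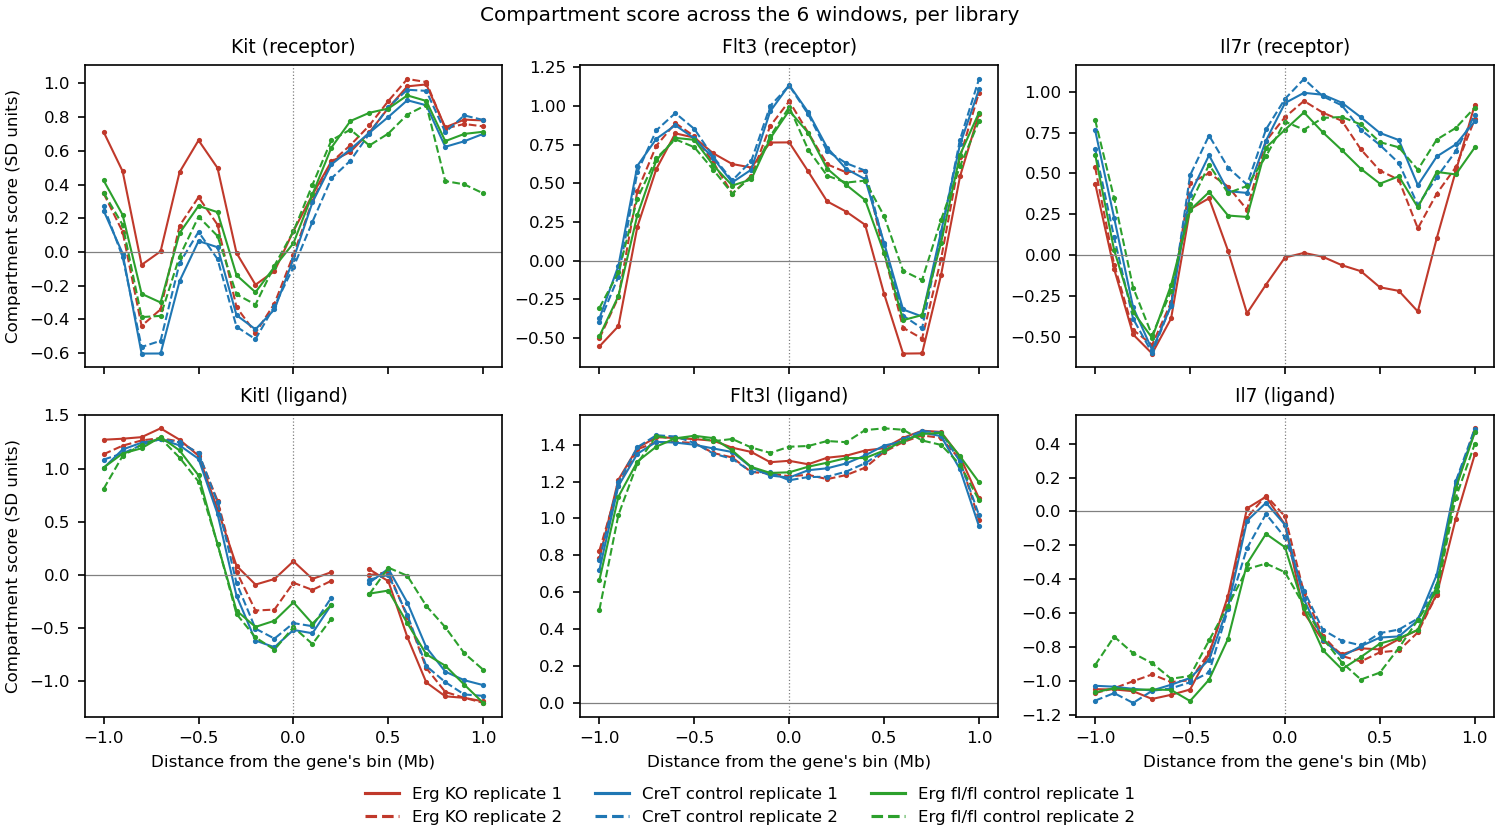
Compartment score (SD units, vertical axis) of each bin against its distance from the gene's bin (Mb, horizontal axis), with 1 line per library and 1 panel per gene, receptors above and ligands below. Erg KO replicate 1 leaves the other 5 libraries over about 1 Mb around Il7r, both Erg KO libraries lie above the controls over the bins next to Kitl, and the lines of Flt3l and Il7 run close together.

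The remaining ligand genes differed little on this scale. Flt3l scored 1.31 and 1.23 in Erg KO and 1.21 to 1.39 in the controls, with a difference of -0.0031 (adjusted p = 0.977) and no bin of its window called. Il7 scored -0.0772 and -0.0290 in Erg KO, -0.0788 and -0.154 in the CreT control, and -0.211 and -0.359 in the Erg fl/fl control. Both Erg KO values lay above all controls, by 0.16 in the fit, without passing (adjusted p = 0.161), and no bin of its window was called either.

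The insulation score is the log2 of the contacts that cross a bin, between the 5 bins on its left and the 5 on its right, over the chromosome's mean, and low values mark borders of contact domains. It differed between Erg KO and the controls in 65.5% of 22800 bins (39% higher and 26.5% lower), so a called member is not set apart by the call. Flt3l, the FL gene, had the largest fall of the members, and this fall turned into a rise when the trend of the scores with GC content was removed from each library. Its score was 0.58 and 0.77 in Erg KO, 0.96 and 1.02 in the CreT control, and 0.88 and 1.13 in the Erg fl/fl control. Erg KO lay below all controls, and the score fell by 0.38 (SE 0.070, limma, adjusted p = 0.00243). It fell in 11 of 12 alternatives and rose by 0.31 (adjusted p = 0.00797) with the GC trend removed, so its direction depended on that correction. All 21 bins of the Flt3l window fell, by 0.30 to 0.81, most at 800 kb after the gene's bin. With the GC trend removed 3 of them still passed as falls and 11 had the opposite sign.

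Il7 went the other way. Its score was -0.022 and -0.15 in Erg KO, -0.40 and -0.28 in the CreT control, and -0.40 and -0.77 in the Erg fl/fl control, with Erg KO above all controls. It rose by 0.44 (SE 0.083, adjusted p = 0.00268, in 11 of 12 alternatives), and 16 of the 21 bins of its window rose while the outermost, 1 Mb after the gene, fell. The GC content of the bins ran opposite to these changes, low around Il7 and high around Flt3l. With the GC trend removed the difference of Il7 was 0.12 (adjusted p = 0.164), 1 of the 17 called bins of its window still passed, and fewer bins of the genome were called, 4957 bins higher and 4728 lower in place of 8895 and 6035.

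Flt3 fell as well, from 0.76, 0.75, 0.72 and 0.75 in the controls to 0.50 and 0.56 in Erg KO. The groups did not overlap, which over kept bins 68.6% of all bins also showed (39.5% higher and 29.2% lower), and the fall of 0.23 (SE 0.068, adjusted p = 0.0187) passed in 5 of 12 alternatives, among them the removal of the GC trend (-0.26, 0.00896). It did not pass without Erg KO replicate 1 (adjusted p = 0.0784) or without either library of the CreT control (0.102 and 0.0897). The decline was centred on the ends of the window and on the gene's own bin. The border 800 kb after Flt3 went from -0.35, -0.54, -0.43 and -0.23 in the controls to -0.85 and -0.79 in Erg KO (a fall of 0.46, adjusted p = 0.00240), while the bins 300 kb and 400 kb before the gene rose by 0.25 and 0.23. That border stood at the same bin in all 6 libraries. With the GC trend removed 5 of the 11 called bins of the Flt3 window still passed, and 3 had the opposite sign.

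Kit and Il7r did not pass in their own bins. Kit scored 0.75 and 0.65 in Erg KO and 0.53 to 0.68 in the controls (difference 0.12, adjusted p = 0.176), and Il7r 0.31 and 0.48 in Erg KO and 0.36 to 0.41 in the controls (difference -0.0058, adjusted p = 0.949). With the GC trend removed both did, Kit with a difference of 0.31 (adjusted p = 0.00554) and Il7r with -0.23 (0.0159). Around Kit the lowest score left of the gene stood 300 kb before its bin in every library, between Pdgfra and Kit, at -0.40 and -0.26 in Erg KO and -0.23 to -0.081 in the controls. The 4 bins from 900 kb to 600 kb before Kit, on the far side of Pdgfra, rose by 0.31 to 0.47. Of the Il7r window 4 bins fell, among them those 700 kb to 900 kb after the gene, where Erg KO replicate 1 was lowest. Without that library 1 of the 4 passed, the bin 800 kb after Il7r (a fall of 0.25, adjusted p = 0.0398), and the bins 700 kb and 900 kb after it differed by -0.0966 and -0.21 (0.416 and 0.0795). Without CreT control replicate 1 the bin 800 kb after it was again the 1 that passed.

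Kitl had no score under the main definition because a bin 300 kb away was not kept. Over kept bins only, it scored 0.49 and 0.40 in Erg KO, 0.23 and 0.19 in the CreT control, and 0.16 and -0.13 in the Erg fl/fl control, which put Erg KO above all controls (difference 0.38, adjusted p = 0.00291). The border 400 kb before Kitl was shallower in Erg KO, at -0.49 and -0.45 against -1.12 to -0.70 in the controls, and that bin rose by 0.40 (adjusted p = 0.00939), which was 0.22 (0.0525) with the GC trend removed.

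**Figure D3:**
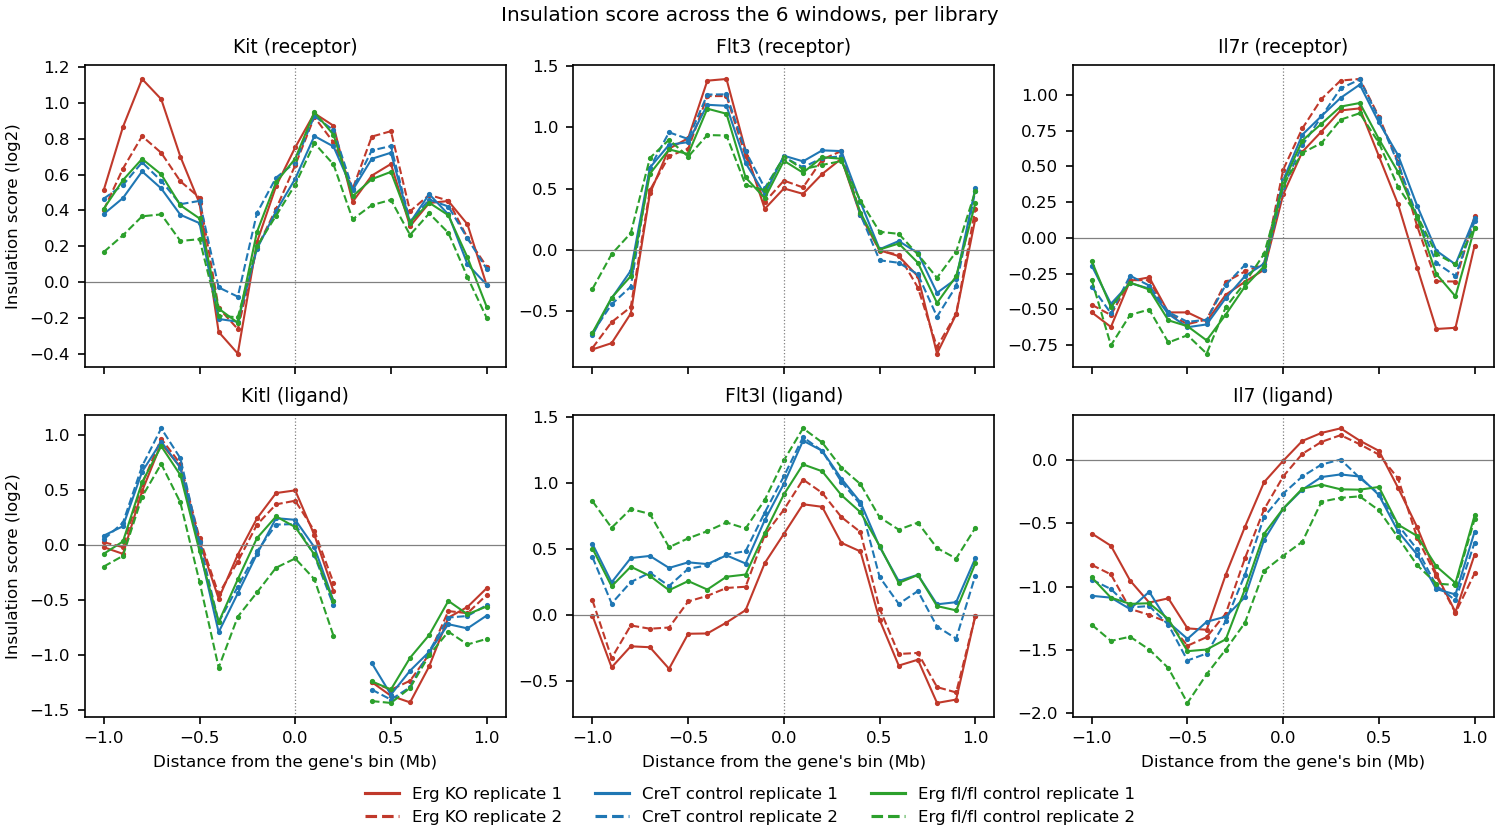
Insulation score over kept bins (log2, vertical axis) against the distance from the gene's bin (Mb, horizontal axis), with 1 line per library and 1 panel per gene. The 2 Erg KO lines run below all controls across the Flt3l window, where the fall of the gene's own bin became a rise of 0.31 with the GC trend removed, and above them around Il7 and Kitl, and the dip 300 kb before Kit stands at the same bin in all 6 libraries.

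Local contacts are the read pairs that join a bin to bins 200 kb to 2 Mb away, tested as counts and shown as CPM, which are scaled to library depth. They too differed in most of the genome, in 67.6% of 23651 bins (34.4% higher and 33.3% lower). For Flt3l, CPM values were 50.4 and 57.7 in Erg KO, 77.3 and 75.9 in the CreT control, and 67.3 and 87.0 in the Erg fl/fl control. All Erg KO values lay below all controls, with a log2 fold change of -0.58 (SE 0.060, edgeR, adjusted p = 1.09e-07), and all 21 bins of the window fell. That call passed in 12 of 13 alternatives, and with offsets for GC content the log2 fold change was -0.0026 (adjusted p = 0.974).

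Kit was the only receptor gene whose own bin changed its local contacts. Its CPM values were 55.9 and 63.0 in Erg KO and 64.1 to 70.1 in the controls, a log2 fold change of -0.20 (SE 0.059, adjusted p = 0.00509) that was 0.053 (0.470) with GC offsets. Kitl had 38.6 and 38.0 in Erg KO and 30.4 to 35.5 in the controls and rose by 0.22 on the log2 scale (adjusted p = 0.0107), which was 0.15 (0.0810) with GC offsets. Il7 had 31.1 and 28.8 in Erg KO and 23.6 to 28.3 in the controls and rose by 0.21 (0.0281), which became -0.065 (0.489) with GC offsets. Flt3 (-0.07, adjusted p = 0.310) and Il7r (-0.09, 0.195) did not pass, although 19 of the 21 bins around Flt3 fell. With GC offsets Il7r had a log2 fold change of -0.25 (adjusted p = 0.00222). Its CPM values were 45.5 and 49.7 in Erg KO, 52.4 and 50.5 in the CreT control, and 49.6 and 48.6 in the Erg fl/fl control, so the groups overlapped before that correction. The call of Kit was lost without Erg KO replicate 1 (adjusted p = 0.167) or CreT control replicate 2 (0.0536), and that of Kitl without Erg KO replicate 2 (0.0944) or its counterpart in the Erg fl/fl control (0.0968). That of Il7 was lost without any one of these last libraries and of the CreT control (0.0838 to 0.143).

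Of the 1386 bin pairs inside the 6 windows 1255 were tested for a differential interaction, the others being too shallow or in the bin near Kitl that was not kept, and in Erg KO against both controls 131 fell and 64 rose. These were 10.4% and 5.10% of them, against 6.26% lower and 6.49% higher among all bin pairs. The windows differed more than the total shows. The Flt3l window held 97 of the 131 bin pairs that fell, out of 217 tested, and none that rose. Flt3 followed with 26 of 226 that fell and none that rose. The ligand windows of Il7 (33 of 174) and Kitl (23 of 178, with 1 that fell) held 56 of the 64 bin pairs that rose. Il7r (6 fell and 3 rose of 231) and Kit (1 fell and 5 rose of 229) stayed below the shares of all bin pairs.

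Median log2 fold changes over the tested bin pairs of a window were -0.48 for Flt3l, -0.19 for Flt3, -0.09 for Kit, 0.02 for Il7r, 0.16 for Kitl and 0.41 for Il7. With offsets for GC content these became 0.02, 0.13, 0.07, -0.13, 0.03 and 0.13, and 64 bin pairs of the 6 windows passed in place of 195. For Flt3l 7 then fell and 16 rose, for Flt3 1 fell and 16 rose, and for Il7 1 fell and 1 rose, so the directions of the Flt3 and Flt3l windows depended on that correction. GC content is a property of the bins and the same for every library, while the trend of counts with it was fitted for each library. What part it has in these values was not tested beyond this. Calls of bin pairs depended on both Erg KO libraries, in the windows as in the whole genome. Without Erg KO replicate 1 the medians, taken without GC offsets, were -0.59 for Flt3l, -0.29 for Flt3, 0.34 for Kitl and 0.61 for Il7. Without Erg KO replicate 2 they were -0.39, -0.13, 0.14 and 0.33. Those of Kit were -0.06 and -0.12 in these fits, and those of Il7r 0.03 and -0.003. Without Erg fl/fl control replicate 2 the median was -0.39 for Flt3l and 0.31 for Il7, again with fewer calls in the windows and the genome.

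**Figure D4:**
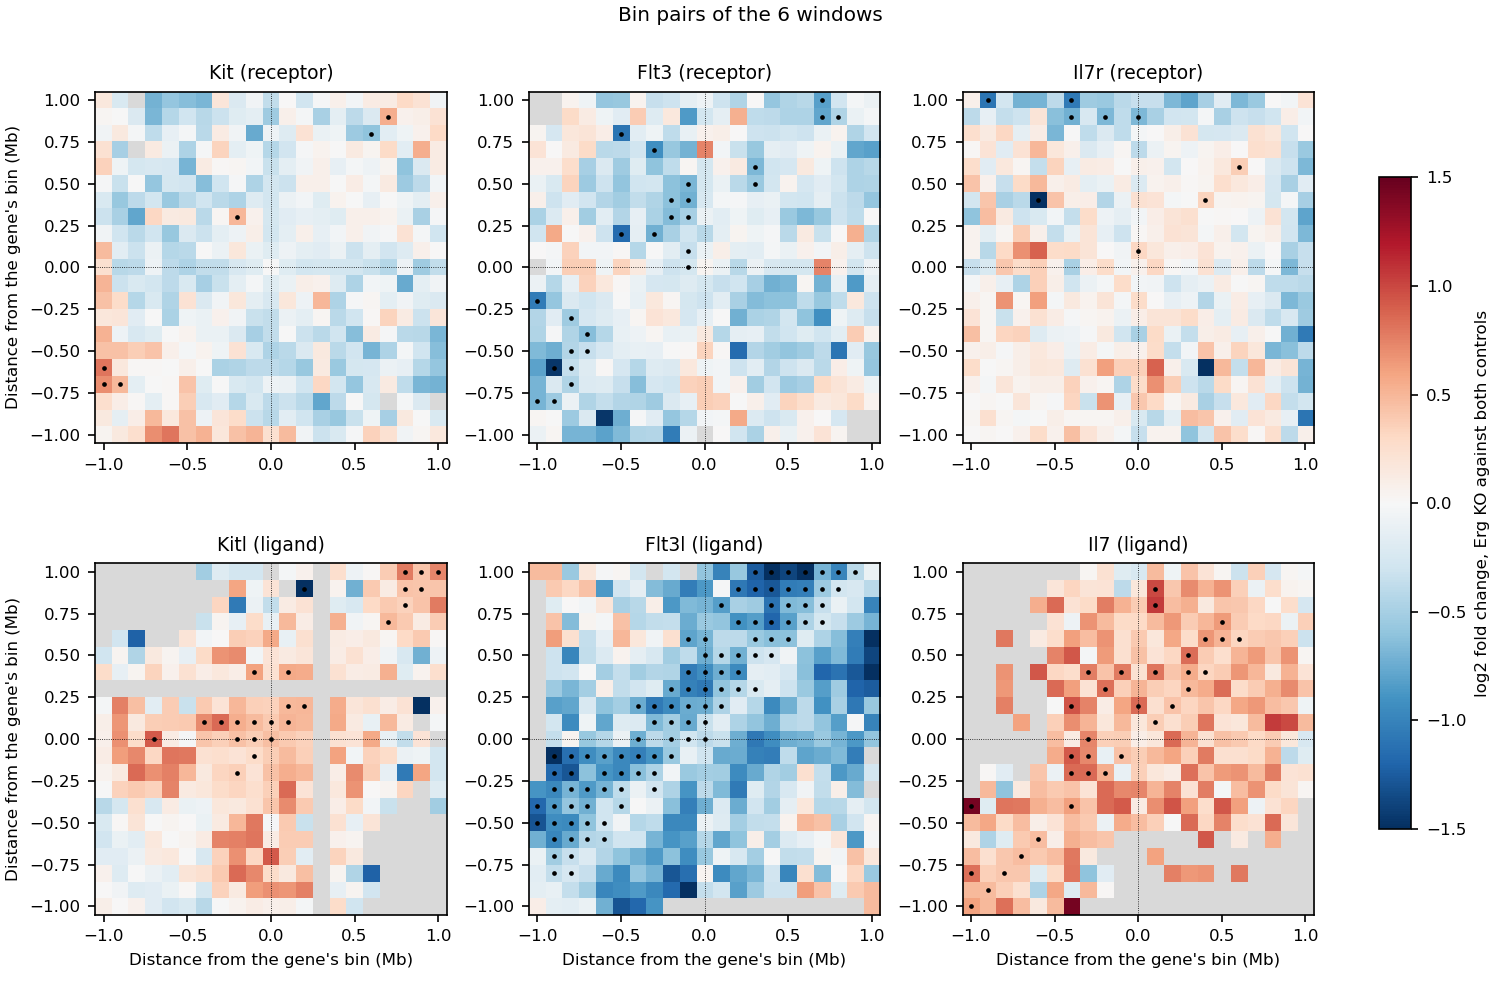
Log2 fold change of each bin pair of a window, Erg KO against both controls, with the distance of either bin from the gene's bin (Mb) on both axes, 1 panel per gene, red for higher and blue for lower in Erg KO and grey where a pair was not tested. Dots above the diagonal mark bin pairs with an adjusted p under 0.05, of which the Flt3l panel holds 97, most of them within 500 kb of the diagonal, and the Il7 and Kitl panels 33 and 24.

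The falls around Flt3l were most frequent between different bins up to 500 kb apart. Of the pairs of a bin with itself 6 of 21 fell (median of the log2 fold changes -0.16). Up to 200 kb apart 34 of 39 fell (-0.46), over 200 kb and up to 500 kb 42 of 51 (-0.82), over 500 kb and up to 1 Mb 15 of 62 (-0.56), and beyond that none of 44 (-0.16). The median change was therefore largest between 200 kb and 500 kb. Of the pairs that include the Flt3l bin itself 10 of 20 fell, with a median of -0.56 over the 20. The smallest p belonged to the pair of the Flt3l bin with the bin 300 kb after it, where Bax and Ruvbl2 start. Its normalised read counts were 96.0 and 115 in Erg KO, 180 and 182 in the CreT control, and 162 and 284 in the Erg fl/fl control. Erg KO lay below all controls with a log2 fold change of -1.07 (SE 0.12, adjusted p = 7.11e-12), which passed in 11 of 12 alternatives and was -0.53 (0.00485) with GC offsets. The next pair joined the bins 200 kb and 400 kb after Flt3l, with 94.0 and 108 against 169 to 226 and a log2 fold change of -0.95 (adjusted p = 1.05e-09, -0.48 and 0.0144 with GC offsets).

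Around Il7 the pairs called as rises were most frequent within bins, with 13 of 21 pairs of a bin with itself, against 5 of 49 over 200 kb and up to 500 kb. The size of the change did not decline in the same way, with median log2 fold changes of 0.37 within bins and 0.40, 0.44 and 0.47 in the next 3 classes of distance, up to 1 Mb. The pair with the smallest p joined the bins 300 kb and 200 kb before Il7, of which the first holds the start of Pkia, the gene of a protein kinase A inhibitor. It had 139 and 111 normalised counts in Erg KO, 70.0 and 67.3 in the CreT control, and 86.0 and 69.7 in the Erg fl/fl control. Both Erg KO values exceeded all controls, by 0.85 on the log2 scale (SE 0.14, adjusted p = 4.15e-06, 0.48 and 0.0329 with GC offsets). Of the pairs that include the Il7 bin 2 of 16 rose.

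For Kitl 9 of 20 pairs of a bin with itself rose and 5 of the 19 pairs that include the gene's bin, whose median was 0.35. The smallest p stood at the far end of the window, within the bin 1 Mb after Kitl, at 224 and 154 normalised counts in Erg KO and 102 to 142 in the controls (log2 fold change 0.73, adjusted p = 4.22e-07, 0.09 and 0.794 with GC offsets). The second was the bin next to Kitl with itself, at 195 and 182 in Erg KO and 119 to 153 in the controls (0.51, adjusted p = 0.000440, 0.26 and 0.239 with GC offsets). That bin holds the last bases of Kitl and no start of a protein-coding gene.

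Among the receptors, Flt3 had its strongest fall away from the gene, between the bins 900 kb and 600 kb before it, where Gpr12 and Rasl11a start. Normalised counts were 20.8 and 26.9 in Erg KO and 47.4 to 79.5 in the controls, a log2 fold change of -1.46 (SE 0.24, adjusted p = 2.72e-06, -1.11 and 0.00125 with GC offsets). The second pair is the one closest to the gene, since it joined the bin that holds nearly all of Flt3, where Cdx2 and Urad also start, to the bin 400 kb after the start with Pomp and Slc46a3. It had 70.8 and 78.9 in Erg KO, 107 and 94.1 in the CreT control, and 117 and 157 in the Erg fl/fl control, and fell by 0.72 on the log2 scale (adjusted p = 0.000198, -0.35 and 0.217 with GC offsets).

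The strongest pair around Il7r joined bins on either side of the gene, 600 kb before (Ranbp3l) and 400 kb after it, with few read pairs. Raw counts were 4 and 5 in Erg KO, 20 and 32 in the CreT control, and 20 and 11 in the Erg fl/fl control, all above Erg KO, with a log2 fold change of -1.86 (SE 0.46, adjusted p = 0.00212, -2.01 and 0.00208 with GC offsets). A second pair, 400 kb before and 1 Mb after Il7r, fell by 1.06 on the log2 scale (adjusted p = 0.00296, and 0.0117 with GC offsets). Of the 21 pairs of the Il7r bin itself 1 fell and 1 rose, and none of the 21 pairs of the Kit bin passed. In the Kit window the pair with the smallest p lay 1 Mb and 600 kb before the gene, with 89.7 and 59.7 normalised counts in Erg KO and 37.0 to 61.0 in the controls, which overlapped (0.81 on the log2 scale, adjusted p = 0.000910, 0.92 and 0.000249 with GC offsets). A pair 600 kb and 800 kb after Kit, whose bins hold the start of Srd5a3 and of the circadian gene Clock, fell by 0.60 (adjusted p = 0.00293, -0.47 and 0.0583 with GC offsets).

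With the CreT control as the only comparison 7.16% of all bin pairs passed (3.68% higher and 3.48% lower), and 9.41% did with the Erg fl/fl control (4.24% higher and 5.16% lower). In the windows 90 bin pairs fell and 35 rose against the CreT control, of which the Flt3l window held 78 that fell and the Il7 window 17 that rose. Against the Erg fl/fl control 103 fell and 37 rose, with 84 that fell around Flt3l and 19 that rose around Il7. These comparisons share the Erg KO libraries.

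Contacts by distance give the same windows without a model, as observed read pairs over those expected from the autosomal mean at each distance in the same library. Flt3l had the highest short-range value of the members, 1.62 and 1.78 in Erg KO and 2.03 to 2.40 in the controls up to 200 kb. Over 200 kb and up to 500 kb it was 1.17 and 1.35 in Erg KO, 1.84 and 1.75 in the CreT control, and 1.67 and 2.27 in the Erg fl/fl control, a difference of -0.57 in log2. The Il7 window had fewer contacts than the mean at every distance, and Erg KO came closer to it. Over 500 kb and up to 1 Mb its values were 0.839 and 0.816 in Erg KO, 0.630 and 0.679 in the CreT control, and 0.606 and 0.507 in the Erg fl/fl control, a difference of 0.46.

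Kitl had 1.17 and 1.15 in Erg KO and 0.837 to 1.05 in the controls over 200 kb and up to 500 kb. Over 1 Mb the order turned round, at 0.755 and 0.749 in Erg KO and 0.756 to 0.807 in the controls, a gap smaller than the spread of either group. Flt3 had 1.14 and 1.18 in Erg KO and 1.26 to 1.36 in the controls up to 200 kb, and 1.33 and 1.38 against 1.46 to 1.55 in the next class. Kit differed without overlap only over 1 Mb, at 1.31 and 1.37 against 1.43 to 1.56. Il7r differed without overlap only up to 200 kb, at 0.927 and 0.948 against 0.899 to 0.924. The groups did not overlap in 16 of the 24 combinations of window and distance, against 72.4% of 1106 windows of the same size laid side by side over the genome in the same 4 classes. The smallest p that the exact permutation test allows is 0.0667, and the lowest adjusted over the 24 comparisons was 0.133. When the expected values also took account of the coverage of each bin, the groups did not overlap in 13 of 24, and several directions changed. Flt3 then lay above all controls at every distance (differences of 0.047 to 0.19 in log2), and Kit did up to 1 Mb (0.15 to 0.26). Kitl overlapped the controls up to 1 Mb and lay below them over 1 Mb (-0.25). Flt3l overlapped them up to 200 kb (0.060), and its difference over 200 kb and up to 500 kb was -0.15. It overlapped them over 500 kb and up to 1 Mb (0.043) and lay above all controls over 1 Mb (0.37). Il7 overlapped them up to 200 kb (0.0098) and stayed above them at the other distances.

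**Figure D5:**
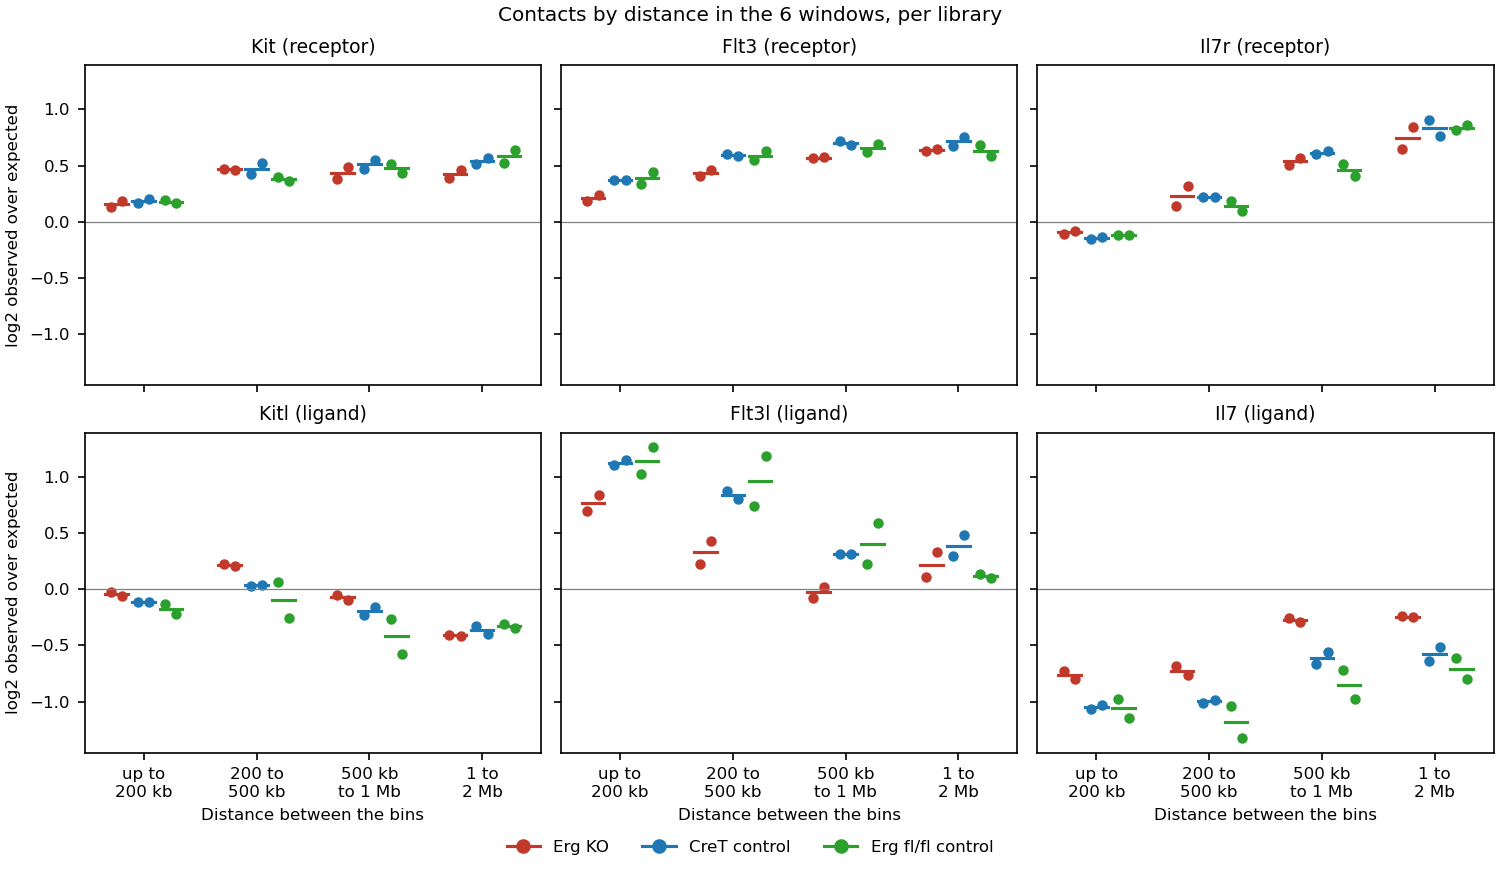
Observed over expected contacts (log2, vertical axis) in 4 classes of distance between the bins (horizontal axis), with 1 point per library, a bar at the mean of each group and 1 panel per gene. Erg KO lies below all controls in the first 3 classes of Flt3l and Flt3, above them in all 4 classes of Il7, and overlaps the controls in most classes of Kit and Il7r. The expected values shown do not take account of bin coverage, with which Flt3 lies above all controls in all 4 classes.

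As a summary by role, the mean compartment score of Kit, Flt3 and Il7r minus that of Kitl, Flt3l and Il7 was -0.163 and 0.244 in Erg KO, 0.466 and 0.465 in the CreT control, and 0.336 and 0.464 in the Erg fl/fl control. Erg KO lay below all controls, by 0.39, and this is a description of 6 chosen genes with no test. The ligand mean was 0.455 and 0.376 in Erg KO against 0.180 to 0.261 in the controls, and the receptor mean 0.292 and 0.620 against 0.597 to 0.675. The difference was -0.19 without Erg KO replicate 1, whose Il7r score weighs on it, and -0.60 without replicate 2. Unsmoothed scores overlapped between the groups, at -0.128 and 0.228 in Erg KO and 0.159 to 0.335 in the controls. Contacts over 500 kb and up to 1 Mb gave a receptor less ligand value of 0.61 and 0.66 in Erg KO and 0.75 to 0.83 in the controls, in log2. Erg KO was also below all controls up to 200 kb (0.0861 and 0.122 against 0.144 to 0.201) and over 1 Mb (0.735 and 0.762 against 0.844 to 1.04), while over 200 kb and up to 500 kb the groups overlapped, at 0.419 and 0.459 against 0.448 to 0.495. The expected values here did not take account of bin coverage. With it Flt3 and Kit lay above all controls up to 1 Mb and Kitl overlapped them, so this order depended on the expected values.

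Genes of the same pathways were read from lists of 173 genes in all. Of 45 signalling genes below these receptors, among them Jak1 and Stat5a, none passed for the compartment score, whose median was 1.30 in the controls and 1.31 in Erg KO. The largest difference was 0.24 for Mitf, a transcription factor that acts below Kit in mast cells and melanocytes (adjusted p = 0.0839). Of 31 other receptors of blood cells 3 fell and none rose, namely Tgfbr2 by 0.34, the chemokine receptor gene Cxcr4 by 0.25 and Il5ra by 0.23 (adjusted p = 0.0493, 0.0483 and 0.0461). Erg KO replicate 1 was lowest at all 3, at 0.319, 1.21 and -0.408. Replicate 2 lay within the controls for Tgfbr2 (0.701 against 0.628 to 0.855) and Cxcr4 (1.453 against 1.450 to 1.684). For Il5ra it lay just below them (-0.208 against -0.200 to 0.040). Of 39 other ligands of stroma 2 rose and none fell, namely Jag1, a Notch ligand, by 0.46 (adjusted p = 0.0413) and Spp1, the osteopontin gene, by 0.24 (0.0481, named after its value was seen), while Hgf, with the largest difference of 0.53, did not pass (0.0526). None of the 6 related receptor kinases passed. Over all bins 1.65% were called lower and 1.67% higher. The median change over all bins was 0.0055.

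Local contacts of the same lists fell broadly, in 36 of the 45 signalling genes, 28 of the 31 other receptors and 17 of the 39 other ligands, with 1, 0 and 9 that rose, beside 33.3% lower and 34.4% higher in all bins. Of 12 housekeeping genes 9 fell and none rose. These counts were taken without GC offsets, and those of the lists with them are not reported here. With GC offsets 4201 bins of the genome fell and 3561 rose, in place of 7865 and 8128. Marker genes of other cells were read in the same way. Of 22 stromal markers 2 rose for the compartment score and none fell (1.67% and 1.65% in all bins), namely Prrx1, a transcription factor gene of mesenchyme (0.39, adjusted p = 0.0413), and the collagen gene Col1a2 (0.32, 0.0446, named after its value was seen). Prrx1 scored 0.517 and 0.143 in Erg KO and -0.120 to 0.298 in the controls, so replicate 2 lay among them. Col1a2 scored 0.704 and 0.457 in Erg KO and 0.187 to 0.389 in the controls. Fap, the gene of fibroblast activation protein, differed in the opposite direction by nearly as much, without passing (-0.35, 0.139). It scored -0.356 in Erg KO replicate 1 and 0.298 in replicate 2, the latter within the controls (0.0155 to 0.400). The median fitted change of the 22 genes was 0.036, and their median score was 0.690 and 0.609 in Erg KO against 0.507 to 0.588 in the controls. Of 14 B-lineage markers none passed, the largest differences being -0.43 for Blnk and -0.41 for Dntt (adjusted p = 0.0691 and 0.0701), and the median of the list was 0.974 and 1.04 in Erg KO against 1.07 to 1.27. Both Erg KO libraries lay below all controls at these 2 genes, and replicate 1 was much the lower. It scored 0.555 at Blnk and 0.513 at Dntt, against 0.996 and 0.930 in replicate 2. The median fitted change of the 14 genes was -0.057. The part of feeder cells or of cell stage in those results was not tested.

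Within the 70 other receptor and ligand genes of these lists, the gene whose compartment scores over the 6 libraries were most like those of Flt3l was Tnfrsf13b (Euclidean distance 0.126), followed by Tnfsf11 (0.142). Flt3 was nearest to Il15ra (0.193) and Ccr7 (0.334), and Il7 to Angpt1 (0.303) and Tgfb2 (0.453). Kit was nearest to Tnfsf13b (0.371) and Il9r (0.435), and Kitl to Tgfb2 (0.391) and Jag1 (0.614). Il7r had Tgfbr2 at 0.441, which shared its low value in Erg KO replicate 1 (0.319 against 0.701 in replicate 2), and no second gene nearer than Igf2 at 0.853. A low value in that library was not confined to these genes, since Il15 scored 0.0550 in it and 0.484 in replicate 2.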

How the data were processed

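In situ Hi-C was done on 6 cultures of B-cell progenitors. The authors aligned reads to mm10, marked duplicates, removed unligated and overlong fragments with diffHic, and deposited raw counts of read pairs for each pair of bins, which consist of whole restriction fragments and span about 100 kb. Replicates are labelled as separate mice. Depth was 29014581 to 68085468 read pairs, so a value from few read pairs carries counting error beside the spread between mice. The 6 genes and all gene lists were chosen with earlier results of these data known.

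Gene starts came from GENCODE M21 on GRCm38, the assembly of mm10, and 19 of 19 autosomes matched in length. Autosomal bins with summed contacts between 0.3 and 3 times the median were kept (23651 of 24067). Bin pairs with a summed count of at least 10 and over 5 times the abundance between chromosomes (431785) were tested in R 4.3.3 in edgeR 4.0.16 (quasi-likelihood F-test), fitting group and sex with loess offsets. Compartment and insulation scores were tested with limma 3.58.1 in the same model, and local contacts with edgeR and TMM scaling. Adjustment was that of Benjamini and Hochberg over all features (threshold 0.05). Single values were compared by a two-sided exact permutation test over 15 splits. Scripts were tested on simulated data.

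Named genes were the 6 members, other genes starting in their bins, related receptor kinases inside a window, at most 3 genes a list with the largest change in compartment score, and 2 genes most like each member, of which some are not reported here. Of each window the 2 bin pairs with the smallest p are described, with genes in their bins. Alternatives were TMM scaling, DESeq2 1.42.0, no sex term, a replicate block, other score settings and filters, and omission of each library. GC corrections of bin pairs, local contacts and insulation, insulation over kept bins, and omission of libraries for neighbouring bins, contacts by distance and receptors less ligands were chosen after seeing the data. Promoters were those of RefSeq for GRCm38.p6, which matched 5 of 6 genes. Sex chromosomes were used only for the share of read ends on X.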

Additional observations from a re-analysis of the deposited data

How the results depend on the processing

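The 195 bin pairs called in the 6 windows were 102 without the sex term, 64 with GC offsets, 18 with DESeq2 and 0 to 206 when 1 library was left out. The 1 gene bin with a changed compartment score was 0 without the sex term or with a replicate block, and 0 to 4 when 1 library was left out. The 4 with changed local contacts were 1 without the sex term, 2 with a replicate block, 2 with DESeq2 and 2 to 4 when 1 library was left out, and with GC offsets none of them passed and 1 other, Il7r, did. Of the list genes 8 changed their compartment score, against 0 without the sex term, 0 with a replicate block, 17 without smoothing, 4 with the GC trend removed and 0 to 56 when 1 library was left out. GC corrections reversed the local contacts of Il7 (-0.065, adjusted p = 0.489) and Kit (0.053, 0.470) and the insulation score of Flt3l (0.31, 0.00797). Calls over all features moved as well. Among all bin pairs 27029 fell and 28011 rose, against 13138 and 13155 without the sex term and 3756 and 8574 with GC offsets. No bin of the genome changed its compartment score without the sex term or with a replicate block. GC content and the result move together, and the cause was not tested.

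Replicate numbers only name the mice. The deviations of same-numbered libraries correlated at -0.174 between Erg KO and CreT control, 0.540 between Erg KO and Erg fl/fl control, and -0.389 between the controls. With the replicate block 147 bin pairs of the windows were called and 2 gene bins changed their insulation score in place of 3. Because the CreT control has no male library, this block together with the sex term amounts to leaving out CreT control replicate 2, and without either male library the other one is taken up by the sex term. Depth limits the pairs of bins far apart, since 1255 of 1386 were tested.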

Other observations

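Contacts between the 6 windows were few, and 15 pairs of windows were compared. The exact permutation test reached its smallest p of 0.0667 at best, and no adjusted p was below 0.25. Most of these pairs of windows overlapped between the groups. Kit and Flt3, both on chromosome 5 and 71.8 Mb apart, shared 379 and 329 read pairs in Erg KO, 442 and 510 in the CreT control, and 266 and 167 in the Erg fl/fl control. Over the number expected from distance this was 1.22 and 1.08 in Erg KO and 1.44 to 1.62 in the controls, so both Erg KO libraries lay below all controls.

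Between chromosomes, the windows of Kitl and Flt3l shared 32 and 31 read pairs in Erg KO and 5 to 21 in the controls, which was 0.876 and 0.756 of the expected number in Erg KO and 0.431 to 0.548 in the controls. The windows of Flt3 and Flt3l, the receptor and ligand genes of FL, stood at 1.10 and 0.946 in Erg KO and 0.634 to 0.785 in the controls. For the other receptors and their own ligands the groups overlapped. Kit and Kitl stood at 1.19 and 1.25 in Erg KO and 0.784 to 1.49 in the controls. Il7r and Il7 stood at 1.72 and 1.32 in Erg KO and 1.48 to 2.03 in the controls. Flt3 and Kitl stood at 0.864 and 1.42 in Erg KO and 1.45 to 1.85 in the controls. These ratios rest on at most 53 read pairs a library, and contacts between chromosomes made up a larger share of the Erg KO libraries. The part of that share in these values was not tested beyond the scaling of the expected number.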
